A study of Homo sapiens with 6 samples.

Results

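Autophagy is the process by which a cell wraps part of its cytoplasm in a double membrane, the autophagosome, and delivers it to the lysosome for breakdown. The 36 genes described here encode the machinery that starts, builds and fills the autophagosome, together with the MiT/TFE transcription factors that control many of these genes. They were taken by name, not by how they moved: every probe set whose platform annotation named one of them was collected, and the brightest of a gene's probe sets, by its mean over the 6 arrays, was taken to represent it. All 36 genes were measured, by 95 of the 54675 probe sets of the array, and they were compared with the 20284 probe sets that stood in the same way for the 21357 genes of the array.

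The cells were HCT116, an established line from a human colorectal carcinoma, grown in medium with 12.5 mM glucose. One group of 3 arrays came from cells given a CDK4 siRNA pool and a single CDK6 siRNA at 30 nM each (called CDK4/6 siRNA), and the other group of 3 from cells given 30 nM each of a non-targeting pool and a negative control siRNA (control siRNA). In both groups the medium was exchanged after 24 h and RNA was taken 96 h after transfection. CDK4 and CDK6 are the kinases that, with D-type cyclins, drive cells through G1. The arrays are labelled biological replicates, without a statement that they came from separate experiments, so p-values reflect only how much these arrays varied, which may be technical. Levels are RMA expression on a log2 scale, where 1 unit is a doubling, and a log2 fold change is the mean of the CDK4/6 siRNA arrays less the mean of the controls. A gene was called higher or lower when limma, with Benjamini-Hochberg adjustment over all 20284 tested probe sets, gave an adjusted p under 0.05. In RNA from a whole culture, fewer cells that express a gene and less of its RNA per cell cannot be told apart.

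Both siRNA targets were called lower, with log2 fold changes of -1.56 for CDK6 (SE 0.055) and -0.69 for CDK4 (SE 0.082) and no overlap between the groups. The control RNAs spiked into the hybridisation differed by -0.11 between the group means (CDK4/6 siRNA minus control, exact permutation p = 0.1, the smallest possible), and scaling the arrays to them moved the median of all genes from -0.0010 to 0.11 and the share of called genes that were higher from 52.2% to 78.1%. Changes here are relative to most other genes on the array, and members whose calls end with that scaling are named, while the pathway lists give their counts under it. The 3' to 5' differences of the GAPDH and ACTB control probe sets, a sign of RNA integrity, overlapped between the groups (exact permutation p = 0.8 and 0.9). Of 8 epithelial markers, EPCAM and KRT19 were bright, at control means of 12.80 and 13.16, while VIL1 was dim at 5.02. Of the same 8, the keratins KRT8 (0.59) and KRT18 (0.51) were called higher and the junction genes CDH1 (-0.54) and CLDN4 (-0.52) lower, changes as large as any among the autophagy genes. Of 6 fibroblast markers, with control means from 3.85 to 8.09, COL1A1, the brightest, was called lower (-0.49, limma adjusted p = 0.000314) and the others were not called. The 5 leukocyte markers measured (control means 3.78 to 6.14) and the 4 endothelial ones (3.40 to 6.29) were not called. The part of these marker shifts in the results was not tested.

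Autophagy is set off by the ULK1 kinase complex, which the nutrient-sensing kinase complex mTORC1 holds in check. A class III phosphoinositide 3-kinase complex then marks the growing membrane with the lipid PI3P. WIPI proteins read that mark, ATG2 proteins bring in lipid, and a pair of ubiquitin-like conjugation systems couple ATG12 to ATG5 and the ATG8 proteins (the LC3 and GABARAP families) to the membrane. Cargo receptors such as p62 (SQSTM1) bind both ATG8 proteins and the material to be degraded.

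After CDK4/6 siRNA the machinery did not move as a block. Of the 36 genes 7 rose and 9 fell, against 14.2% of all genes tested called higher and 13.0% called lower. The genes that rose were ATG16L1 (0.51), ATG4A (0.45), PIK3R4 (0.41), ATG2B (0.39), BECN1 (0.30), ATG101 (0.27) and ATG3 (0.17). The genes that fell were ATG10 (-0.43), the transcription factor TFE3 (-0.39), the cargo receptors NBR1 (-0.35) and OPTN (-0.31), the ATG8 proteins GABARAPL2 (-0.32) and GABARAPL1 (-0.25), and WIPI1 (-0.25), ATG12 (-0.19) and RB1CC1 (-0.19). Every change was small: 11 of the 36 genes (30.6%) differed by 1.2-fold or more in either direction and 0 by 1.5-fold. Over all genes tested, dim ones included, 20.9% differed by 1.2-fold and 898 of 20284 by 1.5-fold. These shares were not measured among genes as bright as the members. The median log2 fold change of the 36 genes was -0.013, beside -0.0010 over all genes tested.

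The share of members called, 44.4%, stands beside 27.2% of all genes tested. All 36 members had a mean level of 6 or more, though, and among the 11567 genes tested at that level 43.0% were called. Likewise the groups did not overlap in 23 of 36 members (63.9%), beside 41.1% of all genes and 60.9% of genes at a level of 6 or more. The number of calls among the autophagy genes was thus near that of other genes of such brightness, a level limit chosen after seeing the values. By role, with 3 to 10 genes each, 33.3% to 66.7% were called, shares that rest on few genes. When scaled to those control RNAs (the spike-in scaling), 10 members were higher and 4 lower, beside 4901 and 1375 of the 20284 genes tested. With 1 array left out, 6 to 7 members were higher and 6 to 9 lower.

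**Figure D1:**
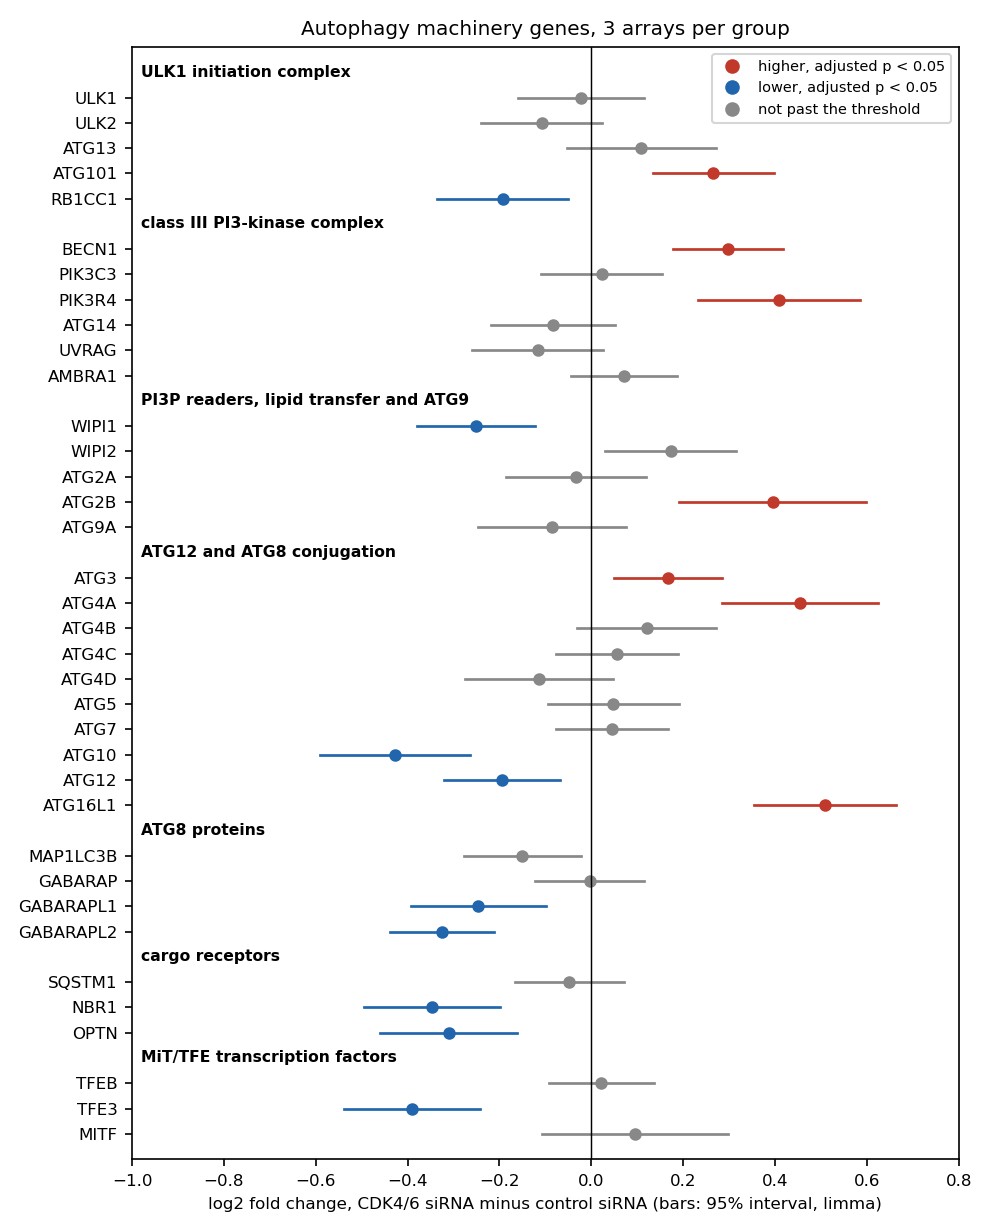
Log2 fold change of each of the 36 autophagy machinery genes (x axis, CDK4/6 siRNA minus control siRNA) by role, with 95% intervals from limma as bars, 3 arrays per group. ATG16L1 lies furthest to the right at 0.51 and ATG10 furthest to the left at -0.43, and all 7 genes of the ATG8 and cargo receptor groups lie below 0, though GABARAP (0.11) and SQSTM1 (0.060) lie above it with the spike-in scaling and GABARAP (0.013) also with median centring.

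The start regions of 33 of the 36 genes were found by symbol in a RefSeq promoter table of GRCh38.p14, as windows from 250 bases before to 50 bases after a gene's start. They were searched on both strands for CACGTG, the E-box that MiT/TFE factors and MYC with its partner MAX can bind, for the longer CLEAR element, which is that E-box with GT before it and AC after it, and for the forkhead motif GTAAACA. The E-box CACGTG was in the windows of 2 of the 33 genes (6.06%), ATG3 and ATG14, beside 8.77% of the 27305 genes in the table. The CLEAR element and GTAAACA were in 0 of the 33, beside 0.421% and 4.19% of all genes. The windows of ATG3 and ATG14 are shown because they hold the motif, in capitals, 2 times in ATG3 and 1 time in ATG14, and those of ATG16L1 and GABARAPL2 because they belong to the gene that rose furthest and the ATG8 gene that fell furthest. They read 5′ to 3′ on the strand of the gene. ATG3 lies at chr3:112561913-112562212 on the minus strand, ATG14 at chr14:55411781-55412080 on the minus strand, ATG16L1 at chr2:233251423-233251722 on the plus strand and GABARAPL2 at chr16:75566129-75566428 on the plus strand.
ATG3: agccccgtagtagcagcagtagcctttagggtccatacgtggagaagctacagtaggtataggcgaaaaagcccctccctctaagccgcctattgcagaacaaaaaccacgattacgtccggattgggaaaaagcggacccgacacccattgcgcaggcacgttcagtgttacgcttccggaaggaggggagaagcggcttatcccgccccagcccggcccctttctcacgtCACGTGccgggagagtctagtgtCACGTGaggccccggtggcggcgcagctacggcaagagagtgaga
ATG14: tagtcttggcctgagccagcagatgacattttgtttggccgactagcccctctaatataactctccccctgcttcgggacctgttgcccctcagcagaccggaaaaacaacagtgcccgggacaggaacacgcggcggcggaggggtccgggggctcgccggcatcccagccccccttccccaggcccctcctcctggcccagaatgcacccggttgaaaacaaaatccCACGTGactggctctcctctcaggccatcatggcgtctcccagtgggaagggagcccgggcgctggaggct
ATG16L1: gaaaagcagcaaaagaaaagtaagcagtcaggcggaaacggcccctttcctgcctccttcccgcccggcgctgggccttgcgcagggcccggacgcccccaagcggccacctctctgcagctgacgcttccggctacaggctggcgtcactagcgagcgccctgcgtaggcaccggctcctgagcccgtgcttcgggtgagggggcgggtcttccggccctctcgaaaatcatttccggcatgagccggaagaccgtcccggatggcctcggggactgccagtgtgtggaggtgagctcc
GABARAPL2: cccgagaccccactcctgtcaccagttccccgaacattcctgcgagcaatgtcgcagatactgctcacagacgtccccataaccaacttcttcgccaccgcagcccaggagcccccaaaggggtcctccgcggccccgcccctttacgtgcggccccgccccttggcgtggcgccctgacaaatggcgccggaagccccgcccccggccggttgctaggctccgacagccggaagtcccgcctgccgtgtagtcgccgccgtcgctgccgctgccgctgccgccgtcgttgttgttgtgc
A match describes letters in a window and is not a binding site. Of the genes with the E-box, ATG3 rose by 0.17 and ATG14 gave -0.083, which did not pass.

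The ULK1 complex, which receives the nutrient signal, had 1 gene higher and 1 lower of 5. ATG101, a subunit that stabilises ATG13 in the complex, measured 8.59, 8.64 and 8.51 in the control arrays and 8.86, 8.80 and 8.88 after CDK4/6 siRNA. All 3 CDK4/6 siRNA arrays lay above the controls, a rise of 0.27 (120.2% of the control level, SE 0.058, limma adjusted p = 0.00898). RB1CC1, also called FIP200, the large scaffold of the complex, measured 10.14, 10.14 and 10.22 in controls against 9.91, 10.07 and 9.95. The groups were separate, and RB1CC1 fell by 0.19 (SE 0.062, limma adjusted p = 0.0492), just inside the threshold. Its call was lost in 12 of 18 alternatives. Among them were 5 of the 6 arrays left out in turn (values -0.21 to -0.16), where only leaving out CDK4/6 siRNA replicate 2 kept it. It was also lost with the spike-in scaling (-0.085), median centring (-0.18), the replicate block and the mean of its probe sets (-0.17). The second RB1CC1 probe set, at a mean of 9.16, gave -0.15 with overlapping groups and no call. The kinases themselves did not pass, with ULK1 at -0.022 (95% interval -0.16 to 0.11) and ULK2 at -0.11 (95% interval -0.24 to 0.023). The 4 ULK2 probe sets all gave values below 0, from -0.26 to -0.061, and with their mean ULK2 was called lower (-0.16, limma adjusted p = 0.0452). ATG13, the regulatory subunit, gave 0.11 on its brightest probe set and -0.19 and -0.050 on the others, none past the threshold, and was called higher with the spike-in scaling (0.22).

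In the class III PI3-kinase complex 2 of 6 genes rose and 0 fell. The share called was 33.3%, against 43.0% of genes tested at a level of 6 or more. PIK3R4, the regulatory subunit also known as VPS15, measured 8.38, 8.33 and 8.11 in controls and 8.65, 8.67 and 8.73 after CDK4/6 siRNA. It rose by 0.41, 1.33-fold (SE 0.077, limma adjusted p = 0.00441), and control replicate 3 was the lowest of the 6 arrays. Its 2 other probe sets, both dim, gave 0.12 and 0.014 without a call, and the mean of all 3 was called higher at 0.18. BECN1, or beclin 1, the core scaffold, was tighter: 9.23, 9.24 and 9.17 in controls against 9.48, 9.53 and 9.52. It rose by 0.30, 1.23-fold (SE 0.053, limma adjusted p = 0.00319), and a second bright probe set also rose, by 0.29. The only BECN1 probe set with a plain name, meaning one without the suffix for probes shared between transcripts, was dim at a mean of 3.65 and gave -0.11, so the direction turned when only such probe sets were used. The mean of the 3 BECN1 probe sets was called higher at 0.16. The lipid kinase subunit itself, PIK3C3 (VPS34), gave 0.022 (95% interval -0.11 to 0.15) and its 6 other probe sets did not pass. ATG14, which directs the complex to autophagy, gave -0.083, UVRAG, the subunit of its endosomal form, -0.12, and AMBRA1, a beclin partner, 0.072, and none of the 3 passed.

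Among the PI3P readers, lipid transfer proteins and ATG9A, 1 of 5 rose and 1 fell. ATG2B, which transfers lipid into the growing membrane, measured 7.26, 7.30 and 7.06 in controls and 7.74, 7.60 and 7.46 after CDK4/6 siRNA, a rise of 0.39, 1.31-fold (SE 0.089, limma adjusted p = 0.0105). Its 3 other probe sets were dim and gave -0.016 to 0.17, and with the mean of all 4 the call was lost (0.16, limma adjusted p = 0.059). Its paralog ATG2A gave -0.033. WIPI1, a PI3P-binding propeller protein, measured 8.87, 8.94 and 8.99 in controls and 8.71, 8.69 and 8.64 after CDK4/6 siRNA. WIPI1 fell by 0.25, to 84.0% of the control level (SE 0.056, limma adjusted p = 0.0102), a call lost with the spike-in scaling (-0.14) and on the plain-name probe set (-0.19). Its paralog WIPI2, which recruits ATG16L1 to the membrane, gave 0.17 with separate groups and an adjusted p of 0.0747 in limma. Of its 4 other probe sets 2 were called higher, at 0.37 and 0.24. WIPI2 was called higher in 7 of 19 alternatives, among them the spike-in scaling (0.28), the mean of all its probe sets (0.17) and plain-name probe sets (0.37, limma adjusted p = 0.00458). ATG9A, the transmembrane protein of the vesicles that seed the membrane, gave -0.086 and did not pass.

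The conjugation machinery held both the largest rise and the largest fall, with 3 of 10 genes higher and 2 lower. Calls made up 50% of this group, against 43.0% of genes tested at a level of 6 or more. ATG16L1, which brings the ATG12-ATG5 conjugate to the membrane, measured 6.69, 6.86 and 6.73 in controls and 7.33, 7.18 and 7.29 after CDK4/6 siRNA. The gap between the groups was 0.32, and the rise was 0.51, 1.42-fold (SE 0.068, limma adjusted p = 0.000752). The second ATG16L1 probe set was dim and gave 0.14 without a call, and the mean of both was called higher at 0.33. ATG4A, one of the proteases that trim ATG8 proteins, measured 7.09, 6.82 and 6.91 in controls against 7.43, 7.36 and 7.38. It rose by 0.45, 1.37-fold (SE 0.075, limma adjusted p = 0.00216). The other proteases did not pass, with ATG4B at 0.12, ATG4C at 0.056 and ATG4D at -0.11, and with the spike-in scaling ATG4B was called higher at 0.23. ATG3, the E2-like enzyme that passes ATG8 proteins to lipid, measured 9.62, 9.63 and 9.61 in controls against 9.75, 9.79 and 9.83. It rose by 0.17 (SE 0.052, limma adjusted p = 0.0429), but this call was lost in 12 of 19 alternatives. Among them were each of the 6 arrays left out (0.15 to 0.19) and its plain-name probe set (0.16). It was also lost with quantile normalisation (0.14), cyclic loess scaling (0.14) and the replicate block.

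ATG10, the E2-like enzyme that passes ATG12 to ATG5, measured 6.79, 6.72 and 6.73 in controls and 6.47, 6.22 and 6.27 after CDK4/6 siRNA. It fell by 0.43, to 74.3% of the control level (SE 0.072, limma adjusted p = 0.00249). Its 3 other probe sets, at mean levels under 6, gave -0.20 to -0.0028 and did not pass, and the mean of all 4 was called lower at -0.17. The E1-like enzyme of both systems, ATG7, gave 0.044 on its brightest probe set, while a second of nearly the same brightness was called higher at 0.31. With the mean of its 4 probe sets ATG7 was called higher (0.18).

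ATG12 and ATG5, whose proteins are joined to each other, each had probe sets that disagreed. ATG12 measured 11.81, 11.83 and 11.86 in controls and 11.59, 11.70 and 11.63 after CDK4/6 siRNA on its brightest probe set, a fall of 0.19 (SE 0.056, limma adjusted p = 0.0297). The next probe set fell too, by 0.26, but the third rose by 0.42, from 8.67 to 9.08, and the mean of all 3 gave -0.012. ATG12 was the only member with probe sets called in both directions. On the brightest probe set its call was also lost with the spike-in scaling (-0.086) and with each array left out except CDK4/6 siRNA replicate 2 (-0.21 to -0.17). ATG5 gave 0.048 on the brightest of 3 probe sets, which did not pass, and 0.097 on another, while the third fell by 0.37 (limma adjusted p = 0.0062 over probe sets), from 8.70 to 8.33. Which transcripts these probe sets detect was not tested.

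The ATG8 proteins had 2 of 4 genes lower and 0 higher, and 1 of 4 lower with the spike-in scaling. With so few genes, the 50% called stands beside 43.0% of genes tested at a level of 6 or more. GABARAPL2, also called GATE-16, was the most tightly measured: 11.80, 11.82 and 11.81 in controls against 11.49, 11.48 and 11.49 after CDK4/6 siRNA. GABARAPL2 fell by 0.32, to 79.8% of the control level (SE 0.050, limma adjusted p = 0.00151), with a gap of 0.31 between the groups. GABARAPL1 measured 9.67, 9.84 and 9.74 in controls against 9.48, 9.57 and 9.46, and fell by 0.25 (SE 0.064, limma adjusted p = 0.0205). That probe set also names GABARAPL3, so the reading cannot be assigned to GABARAPL1 alone. The other GABARAPL1 probe sets, which name no second gene, gave -0.27 and -0.23. The GABARAPL1 call was lost in the spike-in scaled values (-0.14), and also when leaving out control siRNA replicate 2 (-0.20), CDK4/6 siRNA replicate 1 (-0.23) or CDK4/6 siRNA replicate 3 (-0.23). GABARAP itself overlapped fully, at 11.17, 11.22 and 11.18 in controls and 11.22, 11.16 and 11.17 after CDK4/6 siRNA (-0.0034, 95% interval -0.12 to 0.12). MAP1LC3B, whose protein LC3B is the usual marker of autophagosomes, measured 10.53, 10.65 and 10.58 against 10.46, 10.39 and 10.46. The groups of MAP1LC3B did not overlap, but at -0.15 (95% interval -0.28 to -0.022) it missed the threshold (limma adjusted p = 0.0834), and was called lower with cyclic loess scaling (-0.18).

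**Figure D2:**
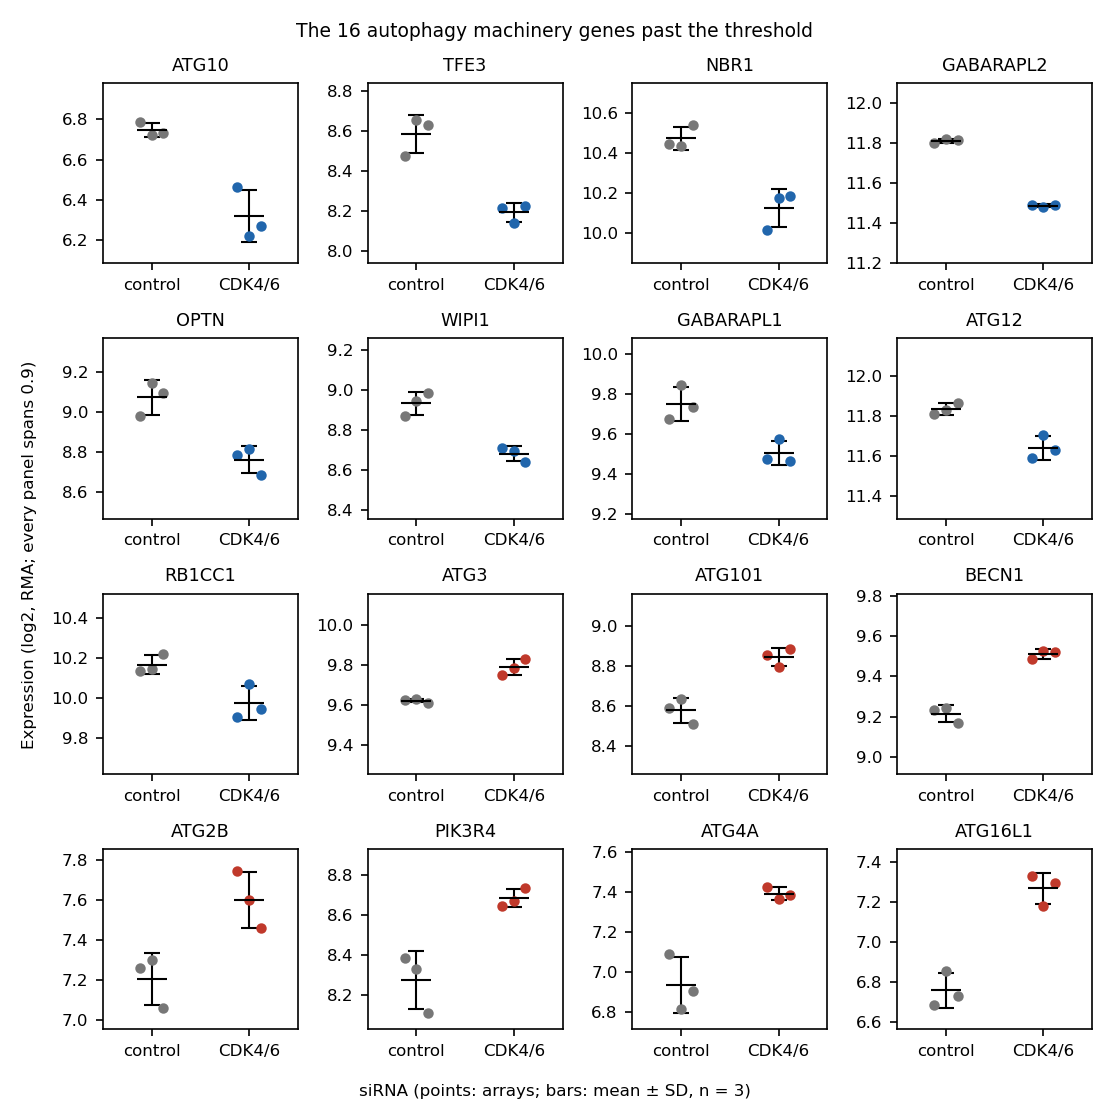
Expression on each array (y axis, log2 RMA, every panel spanning 0.9 units) of the 16 autophagy machinery genes past the threshold, in order from the largest fall to the largest rise, with mean ± SD of 3 arrays per group. The groups are separate in all 16 panels, most tightly for GABARAPL2 (SD 0.010 and 0.0071), and the controls of ATG4A and PIK3R4 spread most (SD 0.14 and 0.15).

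Of the cargo receptors 2 of 3 fell and 0 rose, and 1 of 3 was called lower with the spike-in scaling. A share of 66.7% called, from only 3 genes, stands beside 43.0% of genes tested at a level of 6 or more. NBR1, which binds ubiquitinated cargo and ATG8 proteins, measured 10.45, 10.44 and 10.54 in controls and 10.02, 10.18 and 10.18 after CDK4/6 siRNA. It fell by 0.35, to 78.6% of the control level (SE 0.065, limma adjusted p = 0.00431), and the next brightest probe set fell by 0.50. The 2 other NBR1 probe sets were dim and gave -0.017 and -0.12 without a call, and on plain-name probe sets the call was lost (-0.12, limma adjusted p = 0.634). OPTN, or optineurin, a receptor for mitochondria and bacteria, measured 8.98, 9.15 and 9.09 in controls against 8.79, 8.82 and 8.69. On that probe set OPTN fell by 0.31 (SE 0.066, limma adjusted p = 0.00763), but its second probe set, at a mean of 7.84, gave 0.20 with separate groups. The fall of OPTN was not called with the mean of both (-0.056) or with the spike-in scaling (-0.20). SQSTM1, the p62 receptor that autophagy itself degrades, measured 10.15, 10.16 and 10.13 in controls and 10.12, 10.12 and 10.05 after CDK4/6 siRNA. The SQSTM1 difference was -0.048 (95% interval -0.17 to 0.070) and did not pass, nor did any of its 4 other probe sets.

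Of the 3 MiT/TFE factors among the members 1 was lower. TFE3 measured 8.47, 8.65 and 8.63 in controls against 8.22, 8.14 and 8.23 after CDK4/6 siRNA, with no overlap. It fell by 0.39, to 76.3% of the control level (SE 0.065, limma adjusted p = 0.00234). Its 3 dimmer probe sets gave -0.17, -0.097 and 0.13 and did not pass, and the mean of all 4 gave -0.13 without a call. TFEB, the factor most studied as a regulator of lysosome and autophagy genes, measured 6.43, 6.44 and 6.40 in controls and 6.43, 6.44 and 6.47 after CDK4/6 siRNA (0.022, 95% interval -0.093 to 0.14). A second TFEB probe set of nearly the same brightness, at a mean of 6.41, gave -0.14 with separate groups and no call. The mean of both TFEB probe sets gave -0.057, also without a call. MITF, best known from pigment cells, measured 6.12, 6.05 and 6.17 against 6.10, 6.42 and 6.11, where CDK4/6 siRNA replicate 2 stood above the rest (0.096, 95% interval -0.11 to 0.30). These factors are regulated largely by their location in the cell, which expression arrays do not measure.

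**Figure D3:**
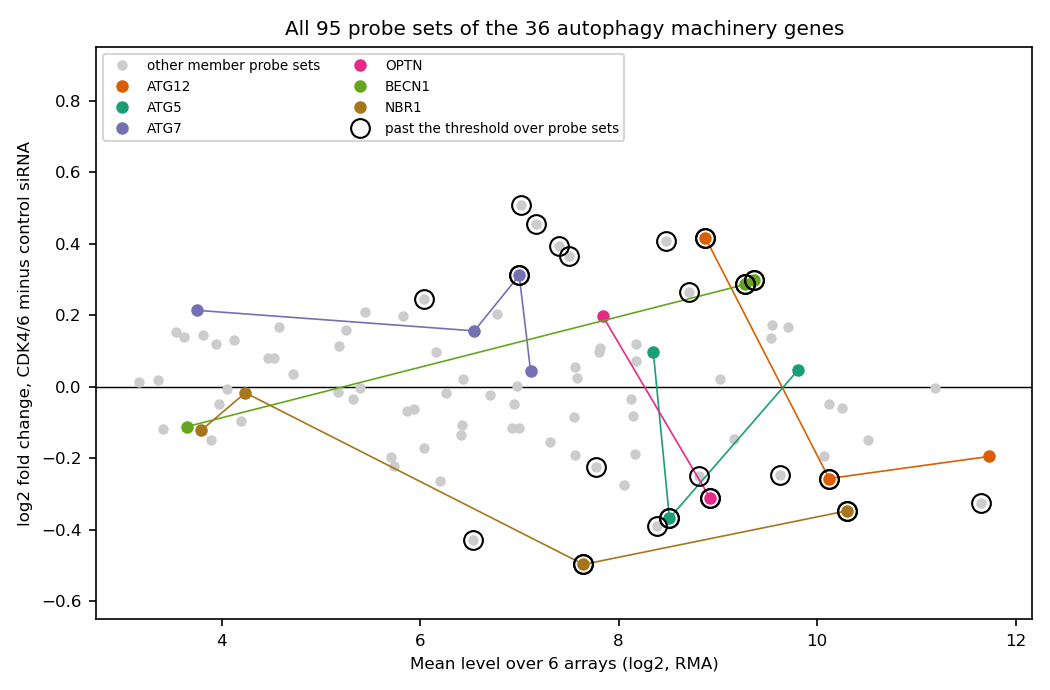
Log2 fold change (y axis, CDK4/6 siRNA minus control siRNA) against mean level over 6 arrays (x axis, log2 RMA) for all 95 probe sets of the 36 genes, with lines joining the probe sets of 6 genes and rings around those past the threshold over probe sets. The probe sets of ATG12 run from -0.26 to 0.42, while the bright BECN1 pair lies together at 0.30 and 0.29.

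Across the 95 probe sets tested separately, 11 were called higher and 11 lower. Of the 54613 non-control probe sets, dim ones included, 17.0% were called in either direction. The probe sets representing RB1CC1, ATG3 and ATG12 did not pass here (limma adjusted p = 0.089, 0.092 and 0.063 over probe sets). The called members had 25 further probe sets, of which 4 were called in the same direction, 1 in the opposite direction and 20 not at all. Of the 36 genes 11 rest on 1 probe set.

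Paralogs, each read from its brightest probe set alone, were set against each other on each array in 8 pairs. The difference lay apart between the groups in 5. Among single genes at a level of 6 or more the groups did not overlap in 60.9%. The share over other pairs of genes was not measured, so the count of 5 does not set paralogs apart. WIPI1 minus WIPI2 differed by -0.42 (SE 0.085), with CDK4/6 siRNA arrays all near -0.95 and controls from -0.68 to -0.39. ATG2A minus ATG2B differed by -0.43 (SE 0.093), TFEB minus TFE3 by 0.41 (SE 0.063), GABARAP minus GABARAPL1 by 0.24 (SE 0.059) and ATG4C minus ATG4D by 0.17 (SE 0.037). For each of these the two-sided exact permutation p was 0.1, the smallest that 3 arrays against 3 allow, and 0.16 after adjustment over the 8 pairs, so this test could not pass 0.05. In the other pairs the groups overlapped: ATG4A minus ATG4B gave 0.33 (SE 0.14, exact p = 0.2), ULK1 minus ULK2 0.086 (SE 0.078, exact p = 0.4) and GABARAPL1 minus GABARAPL2 0.079 (SE 0.059, exact p = 0.3).

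Neighbouring steps of the pathway were read from 5 lists, written with earlier results of these data known. Among 20 upstream kinase and nutrient-sensing genes 3 rose and 4 fell (6 and 2 with the spike-in scaling), with a list median of 0.0037. That is 35% of the list called, against 27.2% of all genes tested and 43.0% of those at a level of 6 or more. DDIT4, or REDD1, a stress-induced inhibitor of mTORC1, fell by 0.93, to 52.4% of the control level (limma adjusted p = 6.4e-05). Its arrays read 12.70, 12.89 and 12.85 in controls against 11.85, 11.90 and 11.89. DEPTOR, another mTOR inhibitor, fell by 0.36. The kinase MTOR (0.42) and AKT1S1 (0.30), itself an inhibitory subunit of mTORC1, rose. The calls of these 4 genes held in all alternatives run, though with the mean of all probe sets MTOR gave 0.25 and DEPTOR -0.20.

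Of 16 genes listed for the lysosomal control of TFEB, 15 were measured. Of these 1 rose and 3 fell (5 and 2 with the spike-in scaling), with a list median of 0.0090. That is 26.7% called, against 27.2% of all genes tested and 43.0% of those at a level of 6 or more. The dimmest of the 15, TFEC, had a mean of 3.71. RRAGD, a Rag GTPase that presents TFEB and TFE3 to mTORC1, measured 10.62, 10.69 and 10.75 in controls and 9.95, 9.97 and 9.89 after CDK4/6 siRNA. It fell by 0.75, to 59.5% of the control level (limma adjusted p = 9.21e-05), and its second probe set fell by 0.55. FNIP1 and FNIP2, partners of folliculin in controlling the Rag GTPases, fell by 0.49 and 0.27. The mean of the FNIP1 probe sets was called lower at -0.23, and FNIP2 was not called with the spike-in scaling (-0.16) or the mean of its probe sets (-0.11). SLC38A9, the lysosomal arginine sensor, rose by 0.38, without a call for the mean of its probe sets (0.14).

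The selective autophagy and mitophagy list had 1 of 21 genes higher and 5 lower (5 and 2 with the spike-in scaling), with a list median of -0.042. That is 28.6% called, against 27.2% of all genes tested and 43.0% of those at a level of 6 or more. The lowest mean level in the list was 6.17. BNIP3 and BNIP3L, outer membrane receptors that mark mitochondria for autophagy, fell by 0.66 and 0.61, to 63.3% and 65.5% of the control level. BNIP3 read 12.83, 12.82 and 12.97 in controls against 12.17, 12.26 and 12.21, and the second probe sets of BNIP3 and BNIP3L fell by 0.77 and 0.65. KEAP1, which SQSTM1 can bind, rose by 0.31. WDFY3, or ALFY, a scaffold for aggregate clearance, fell by 0.20, a call lost with the spike-in scaling (-0.096), without control siRNA replicate 1 (-0.19) or 3 (-0.19), and without CDK4/6 siRNA replicate 1 (-0.20) or 2 (-0.20), and the mean of its probe sets gave 0.014.

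Genes for fusion of autophagosomes with lysosomes had 4 of 16 higher and 3 lower (6 and 1 with the spike-in scaling; list median -0.0051), which is 43.8% called against 27.2% of all genes tested and 43.0% of those at a level of 6 or more. VPS33A (0.51) and VPS18 (0.49), subunits of the HOPS tethering complex, and the SNARE protein YKT6 (0.46) rose, by 1.38-fold or more on their brightest probe sets. Their calls held in all alternatives run, but the 2 other VPS33A probe sets gave 0.13 and 0.11 without a call, and the mean of all 3 gave 0.25. HOPS did not rise as a whole. Of its other listed subunits, VPS11 was called lower (-0.18, limma adjusted p = 0.0442). VPS16 (-0.14), VPS41 (-0.045) and VPS39 (-0.040) lay below 0 without a call. EPG5, a tether, fell by 0.36 on its brightest probe set but rose by 0.57 on the next, and the mean of its 7 probe sets gave 0.0080.

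In the list of further core genes 1 of 16 rose and 3 fell (2 and 1 with the spike-in scaling; list median -0.065), which is 25% called against 27.2% of all genes tested. WDR45B, the WIPI family member also called WIPI3, measured 11.21, 11.35 and 11.36 in controls and 10.57, 10.64 and 10.51 after CDK4/6 siRNA. It fell by 0.73, to 60.2% of the control level (limma adjusted p = 0.000126), while its paralog WDR45, or WIPI4, rose by 0.24, a call lost without control siRNA replicate 1 (0.23) or CDK4/6 siRNA replicate 1 (0.21). SH3GLB1, a membrane-bending partner of beclin 1, fell by 0.25, not with the spike-in scaling (-0.14). The third fall was the probe set shared by GABARAPL3 and GABARAPL1, already counted above.

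**Figure D4:**
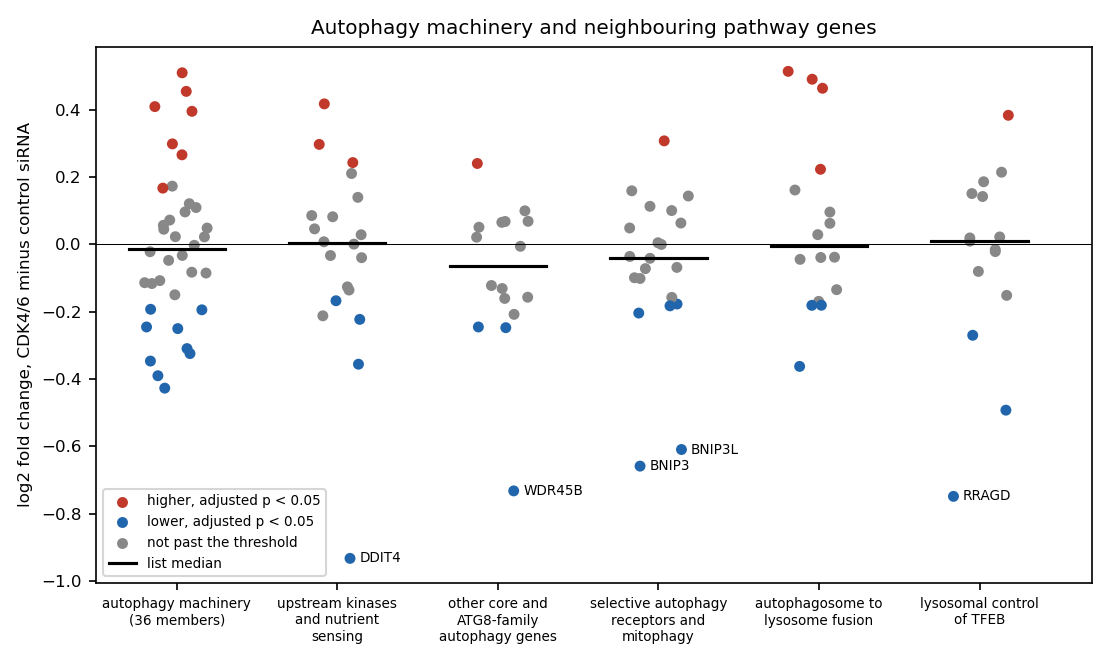
Log2 fold change (y axis, CDK4/6 siRNA minus control siRNA) of the autophagy machinery genes and of 5 lists of neighbouring pathway genes, each point a gene, with list medians as bars. The 36 machinery genes lie between -0.43 and 0.51, while DDIT4 (-0.93), RRAGD (-0.75), WDR45B (-0.73), BNIP3 (-0.66) and BNIP3L (-0.61) in the neighbouring lists fell further.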

How the data were processed

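RNA from 6 HCT116 cultures, 3 per group, was measured on 1-colour Affymetrix arrays. The deposited values are log2 expression per probe set, made by the authors with RMA per the submitters' processing notes. RMA corrects background, equalises distributions between arrays and summarises probes, so a change in total RNA cannot be seen and changes of dim probe sets are compressed. The RMA version and genome build were not given in the sources used here, no detection calls were used, and the number of arrays limits the precision. Array medians lay between 5.36 and 5.39.

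In the platform annotation 41097 probe sets carried 1 symbol, 1801 carried several and 11777 carried none. A probe set that stood for several genes entered the fit 1 time, which left 20284. No filter on level was applied. Of the members, 1 (GABARAPL1) was represented by a probe set naming several genes. Groups were compared with limma 3.58.1 (lmFit, then eBayes; R 4.3.3), fitting the group alone. Single values were tested by exact permutation of the arrays, two-sided. The fit was tested on simulated data. Figures were drawn with matplotlib 3.10.9.

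The members, lists and alternatives were chosen with earlier results of these data known. Array values are given for members called changed, the ATG8 proteins and the MiT/TFE factors. From each pathway list up to 4 called genes with the smallest adjusted p are named. TFEC and the other HOPS subunits are named besides. Alternatives were 4 other scalings, a filter on dim genes, other choices of probe set, other variance options and weights, a stricter threshold, a replicate block and each array left out. The share of genes called at a level of 6 or more was added after seeing the data. LAMTOR1 was listed but not analysed here. Promoter windows are from RefSeq, GRCh38.p14. In 302 of 302 overlapping windows of opposite strands the sequences were reverse complements, so windows are read along the gene.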

Additional observations from a re-analysis of the deposited data

How the results depend on the processing

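Over 19 alternatives, 6 of the 16 calls among the members were kept in every alternative that measured the gene, namely ATG101, PIK3R4, ATG4A, ATG10, ATG16L1 and GABARAPL2. Of these, ATG101, ATG4A and GABARAPL2 have 1 probe set each, so other choices of probe set could give no different value for them. The calls of 12 were kept with each array left out and of 10 under all 4 other scalings. With each array left out in turn, the number of genes called changed ran from 4406 to 4931, 6 to 7 members were higher and 6 to 9 lower, and the members' median ran from -0.031 to 0.017. With the spike-in scaling 4 members were lower, and the median of the 36 members moved to 0.096, beside 0.11 over all genes. Plain-name probe sets measured 27 members and gave 3 lower. At a threshold of 0.01, 5 members were lower and the genes called changed numbered 3469. With every probe set tested, 9302 probe sets were called.

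Directions turned for BECN1 (-0.11) and OPTN (0.20) on plain-name probe sets, for GABARAPL3 (0.072) on plain-name probe sets and on those naming 1 gene, and for EPG5 (0.0080) and WDFY3 (0.014) with the mean of all probe sets. In each of these cases another probe set stood for the gene or entered its mean. Among members not called, 12 changed sign and 6 were called under at least 1 alternative.

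Arrays with the same replicate number did not visibly deviate together (correlations of -0.0079, -0.12 and -0.0047 across genes). With so few arrays a weak shared effect could go unseen, so whether the numbers mark paired cultures is not known. With the replicate block the genes called changed numbered 4917, with 6 members higher and 7 lower.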
